A study of Mus musculus with 4 samples.

Results

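Expression of 10 genes of the Sox family was followed across the cell classes of the adult mouse dentate gyrus and after blockade of a microRNA. The genes were taken by name (Sox2, Sox4, Sox5, Sox8, Sox9, Sox10, Sox11, Sox17, Sox18 and Sox21) and are 10 of the 31557 genes in the count table and of its 18 genes named Sox. The cells were taken from 8 male mice of a nestin-GFP line, from the dentate gyrus as a whole. In this line a green fluorescent protein reporter driven by nestin regulatory sequence marks neural stem cells but also other cells of their niche, and cells were collected by its fluorescence. All mice received an infusion into the brain ventricle at 2 months of age and were analysed at 3 months. In 4 mice (numbers 2, 4, 6 and 8) the infusion was 2 µl of a cholesterol-modified locked nucleic acid antagomir against miR-132, at 0.33 nmol/ml. The other 4 mice (numbers 1, 3, 5 and 7) received a scrambled locked nucleic acid oligonucleotide at a dose the labels do not state. Single cells were sequenced by Smart-seq2, which reads whole polyadenylated transcripts and attaches no molecular identifiers. Counts are therefore reads, and the intervals of shares cover counting error only. Mature miR-132 was not measured by this assay, so the blockade itself was not checked here.

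Sox proteins bind DNA through a high mobility group domain and act with partner factors, and they are grouped by the similarity of that domain. SoxB factors such as Sox2 maintain neural stem cells, SoxE factors specify glia (Sox9 in astrocytes and stem cells, Sox8 and Sox10 in the oligodendrocyte lineage), and SoxC factors (Sox4 and Sox11) act in newborn neurons. Sox5, of the SoxD group, lacks a transactivation domain and modulates the others, and the SoxF factors Sox17 and Sox18 act in blood vessel endothelium.

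The antagomir pairs with mature miR-132-3p, a microRNA of 22 bases encoded on chromosome 11 (chr11:75173723-75173744, plus strand, GRCm38.p6, sequence from RefSeq). It is shown because its seed, bases 2 to 8 in capitals, is the part compared with the 10 transcripts.
miR-132-3p: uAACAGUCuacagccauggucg
A match to that seed (GACTGTT on the transcript strand) was found in the longest annotated 3′ UTR (GENCODE M21, GRCm38) of 4 of the 10 genes and in none of the other 6. For comparison, 10.7% of 21028 genes with a 3′ UTR (2252 genes) held at least 1 match. The UTRs of the 4 genes range from 785 bases (Sox17) to 6957 bases (Sox11), and the median over all genes is 960.5. The matches are printed with the flanking bases of the transcript strand, the match in capitals.
Sox4, chr13:28950513-28950519, minus strand: tttctgtataaGACTGTTgagcagttttt
Sox5, first match, chr6:143833162-143833168, minus strand: tctcatacactGACTGTTattttaactgt
Sox5, second match, chr6:143831657-143831663, minus strand: acgaggttagaGACTGTTtgcatttcaca
Sox11, chr12:27335940-27335946, minus strand: ttgtttgaatgGACTGTTttgaaacggag
Sox17, chr1:4490932-4490938, minus strand: gtttgtgttgtGACTGTTa
The first Sox5 match and the Sox17 match are followed by an A, the base that extends a seed match to 8 bases. The Sox17 match starts at base 778 of a UTR of 785 bases, so its A is the last annotated base. A match is a description of the letters and does not show that the microRNA binds there.

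Of 768 wells, 716 with 500 to 6000 detected genes were kept, with 4118 to 1640971 counts each and 43996495 to 69191485 counts per mouse. Clusters were built without any Sox gene and named from marker genes that include none. They gave 302 oligodendrocyte-like, 203 radial glia-like or astrocyte-like, 87 endothelial-like, 82 mural-like (pericyte and smooth muscle), 25 neuroblast-like, 12 fibroblast-like and 5 oligodendrocyte precursor-like cells. Nes, whose regulatory sequence drives the reporter, had counts in 71.2% of the oligodendrocyte-like, 49.3% of the radial glia-like or astrocyte-like, 63.2% of the endothelial-like and 96.3% of the mural-like cells. With the Sox genes kept in the clustering, where 4 of them were among the variable genes used, all 716 cells kept their class. Levels below are CPM, the counts of a gene per 1000000 counts of all genes, summed over the cells of a class in a mouse, as the mean ± SD over mice with at least 3 cells. Because the other genes of the same cells made the classes, tests between classes describe how a difference compares with the spread between mice. They are not independent evidence for the classes.

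Sox9, Sox10, Sox17, Sox18 and Sox21 each had at least 96.4% of their counts in 1 class. The largest share of 1 class was 88.6% for Sox8, 85.4% for Sox11, 77.9% for Sox2, 59.4% for Sox5 and 41.1% for Sox4. At 10 CPM or more on average, 2 of them were found in oligodendrocyte-like cells, 7 in radial glia-like or astrocyte-like cells, 4 in neuroblast-like cells, 3 in endothelial-like cells and 2 in mural-like cells. At least 1 of the 10 had a count in 98.3% of oligodendrocyte-like, 94.1% of radial glia-like or astrocyte-like, 100% of neuroblast-like, 82.8% of endothelial-like and 51.2% of mural-like cells. In the plot of levels per mouse, Sox8, Sox9, Sox10, Sox11, Sox17, Sox18 and Sox21 each have 1 class that lies above the other 4 classes compared in every mouse.

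**Figure D1:**
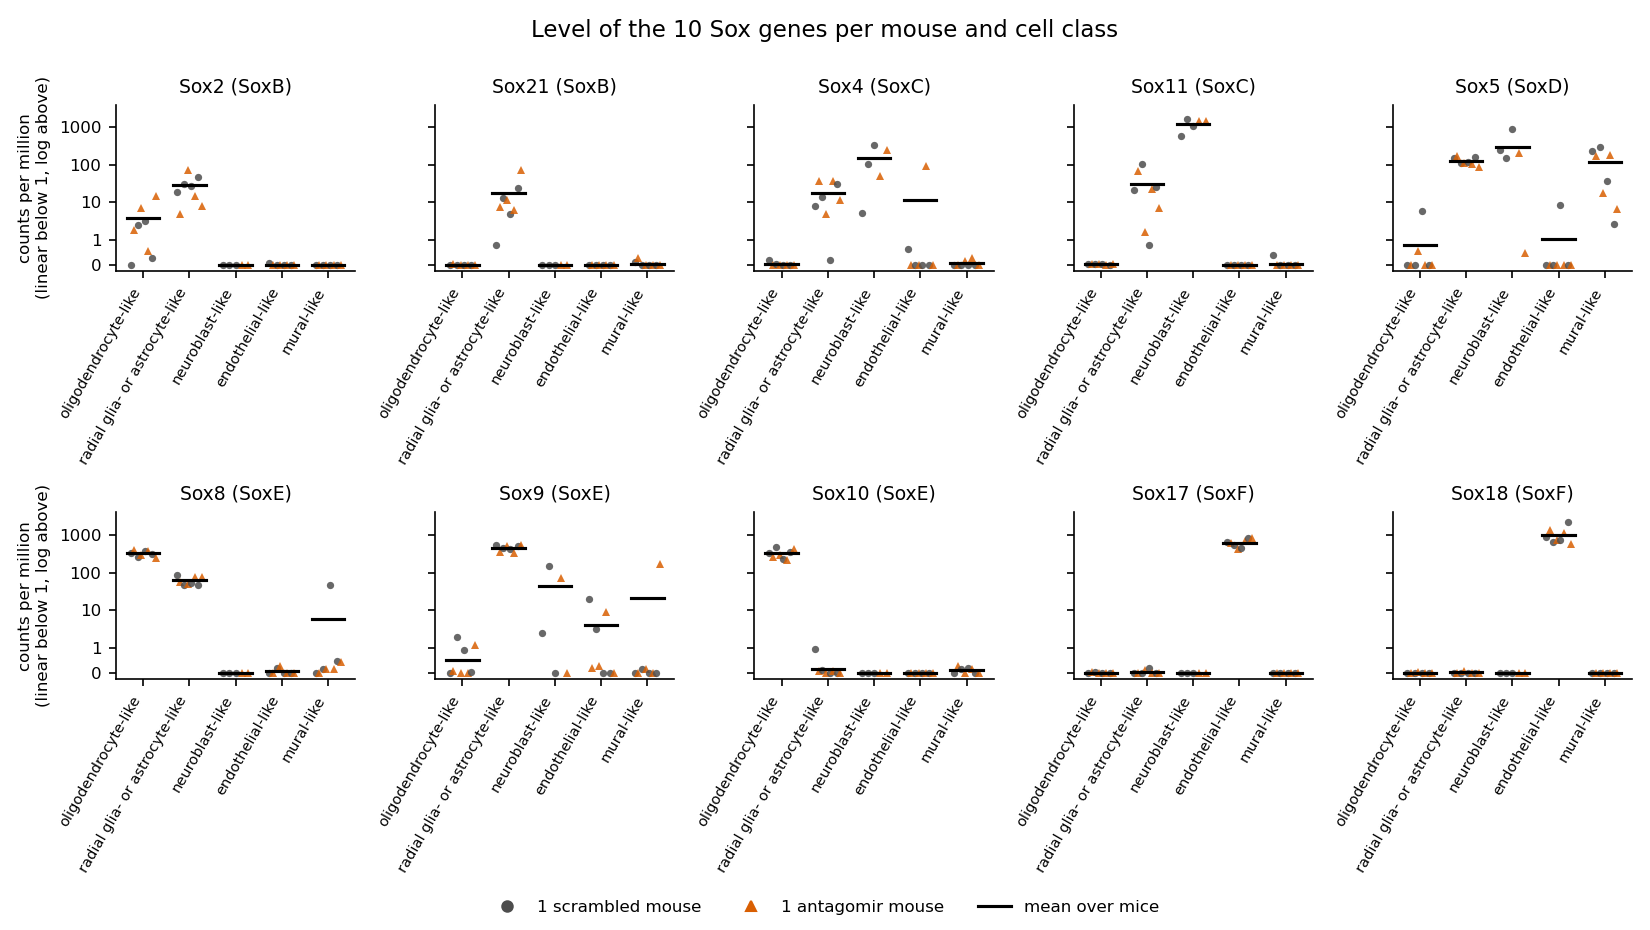
Level of each Sox gene per mouse and cell class, in CPM on an axis that is linear below 1 and logarithmic above. Points are mice (circles scrambled, triangles antagomir; 8 mice, 5 for neuroblast-like cells) and lines are means: Sox10 averages 327 in oligodendrocyte-like cells and Sox9 459 in radial glia-like or astrocyte-like cells, while Sox17 and Sox18 are at 630 and 1033 in endothelial-like cells and near 0 elsewhere.

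Sox10, the SoxE factor that drives myelin genes, had 98.0% of its 84069 counts in oligodendrocyte-like cells. In oligodendrocyte-like cells it ranged from 214 CPM in the lowest mouse through a median of 318 to 491 CPM in the highest (mean 327 ± 95.9, SD, n = 8). It had counts in 291 of these 302 cells (96.4%, 95% Wilson interval 93.6 to 98.0). In the other large classes it was at or near background, with counts in 1.97% of radial glia-like or astrocyte-like cells, 4.88% of mural-like cells and 0 of 87 endothelial-like cells, which allows a share of up to 3.45%. Pooled over cells, Sox10 was 5607-fold higher in oligodendrocyte-like than in endothelial-like cells, taking 3 counts over the group as the floor for the latter. Reads are not independent molecules and a single cell can hold many, so a ratio to this floor is not a lower bound.

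Sox8, the second SoxE factor of the lineage, ran beside Sox10 but reached into the stem and astrocyte class. It lay between 249 and 409 CPM in oligodendrocyte-like cells (median 322, mean 325 ± 59.2, n = 8) and between 46.1 and 88.3 CPM in radial glia-like or astrocyte-like cells (median 55.6, mean 61.6 ± 15.5, n = 8). The ranges of these classes do not overlap. The difference was 2.62 on the log2 scale (SE 0.20, 95% interval 2.18 to 3.06, adjusted p = 4.9e-06, edgeR quasi-likelihood test with the mouse as block and Benjamini-Hochberg adjustment, higher in 8 of 8 mice). In 1 joint fit over all classes the same difference was 2.51 with an adjusted p of 0.0758. Sox8 had counts in 82.5% and 35.5% of the cells of these classes and in 8.54% of mural-like cells, where 1 cell held 97.6% of the counts. Of its 3118 exonic bases 329 are overlapped by the antisense transcript 2810468N07Rik, which stood at 608 ± 57.4 CPM (n = 8) in oligodendrocyte-like cells. The labels do not state the strand setting of the counting, so reads of the overlap cannot be told apart.

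Per kilobase of exon, Sox8 and Sox10 were equal within their spread in oligodendrocyte-like cells, at 104 ± 19.0 and 107 ± 31.4 CPM per kb. Most oligodendrocyte-like cells had counts of both: 244 of 302, which is 98.0% of the cells with Sox8 and 83.8% of those with Sox10, and 6 cells had neither. The 3 clusters of the class were alike, with Sox10 in 95.3%, 96.6% and 100% of their cells and Sox8 in 81.8%, 83.2% and 82.9%. After thinning each cell to 200000 counts, which left out 5 shallower cells, the shares were 95.6% for Sox10 and 81.8% for Sox8.

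Sox9, the SoxE factor of astrocytes and stem cells, lay where Sox10 did not. In radial glia-like or astrocyte-like cells it ranged from 337 to 537 CPM (median 474, mean 459 ± 78.6, n = 8), and 178 of 203 cells had counts (87.7%, interval 82.5 to 91.5). In oligodendrocyte-like cells it had counts in 7 of 302 cells, at 0.509 ± 0.737 CPM, and pooled over cells it was 792-fold lower there. Neuroblast-like cells held it in 6 of 25 cells, at 0 to 147 CPM in 5 mice (median 2.46). Endothelial-like cells, which should lack it, had counts in 8.05% of cells at a median depth of 565180 counts per cell, against 572684 in neuroblast-like cells. In mural-like cells the mean of 21.1 CPM rested on 1 cell of mouse 8 that held 99.5% of the counts. Per kilobase, Sox9 in its own class (111 ± 19.0 CPM per kb) and Sox10 in oligodendrocyte-like cells did not differ beyond their spread.

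Across the whole list, 7 of the 10 genes passed the filter on low counts in the comparison of oligodendrocyte-like with radial glia-like or astrocyte-like cells, and 6 of them differed (Sox8 and Sox10 higher, Sox5, Sox9, Sox11 and Sox21 lower). The background was 27.1% of 11007 genes. A gene that passed the filter only through the class where it is high had to differ. This count therefore supports nothing beyond the values given for each gene. The seventh, Sox2, missed the threshold (adjusted p = 0.0742, edgeR). Sox4, Sox17 and Sox18 were filtered out there.

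**Figure D2:**
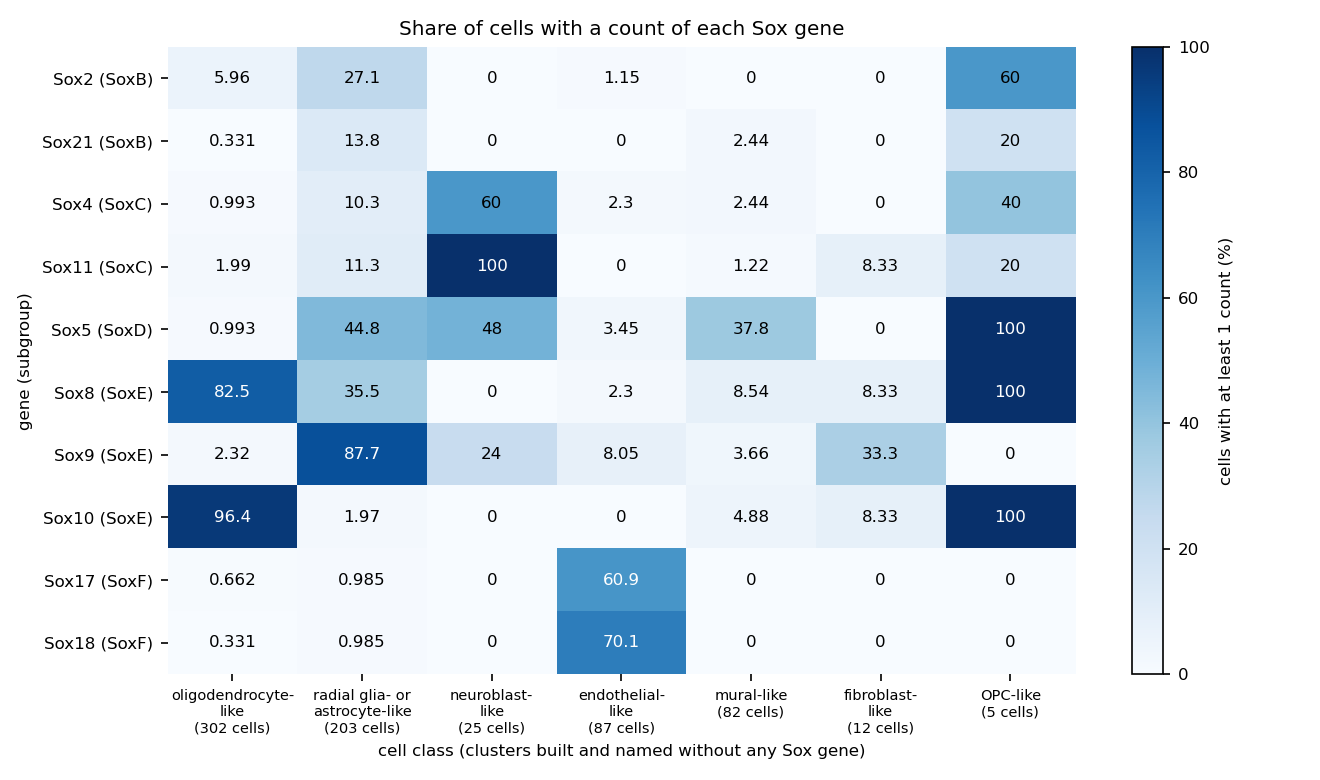
Share of cells with at least 1 count, in percent, for each Sox gene (rows) and cell class (columns, with the number of cells); the colour runs from 0 to 100%. Sox10 is found in 96.4% of oligodendrocyte-like cells, Sox9 in 87.7% of radial glia-like or astrocyte-like cells and Sox11 in 100% of neuroblast-like cells, while the vascular columns hold Sox17 and Sox18 (endothelial-like) and Sox5 (mural-like).

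The 5 oligodendrocyte precursor-like cells, 4 from mouse 2 and 1 from mouse 1, give no spread between mice. Sox5, Sox8 and Sox10 had counts in 5 of 5, Sox2 in 3, Sox4 in 2, Sox11 and Sox21 in 1 and Sox9 in 0. In mouse 2 Sox8 stood at 968 CPM and Sox10 at 516 CPM.

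Sox2, the SoxB factor that maintains neural stem cells, was detected in a minority of cells and varied between mice. In radial glia-like or astrocyte-like cells it read 18.8, 30.9, 26.9 and 48.6 CPM in the scrambled mice 1, 3, 5 and 7 and 4.96, 72.2, 14.5 and 7.86 CPM in the antagomir mice 2, 4, 6 and 8. Counts were found in 55 of the 203 cells (27.1%, interval 21.4 to 33.6), and 54 of those 55 cells also had Sox9. In oligodendrocyte-like cells it averaged 3.79 ± 4.97 CPM (n = 8), with counts in 18 of 302 cells (5.96%), all 18 of which had Sox10. It had 0 counts in 25 neuroblast-like and 82 mural-like cells and 1 count in 87 endothelial-like cells. The long noncoding transcript Sox2ot, in whose gene Sox2 lies, followed another pattern: 511 ± 71.3 CPM in oligodendrocyte-like cells (97.0% of cells) and 38.1 ± 24.8 CPM in radial glia-like or astrocyte-like cells (23.2%). No exon of Sox2 is overlapped by another exon in the annotation.

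Sox21, the other SoxB member and a repressor, had 98.2% of its 1978 counts in the same class. It ranged there from 0.786 CPM (mouse 1) to 73.0 CPM (mouse 8), with a median of 9.61 and counts in 28 of 203 cells (13.8%). A single cell held 25.1% of the counts there. Pooled over cells Sox21 was 277-fold above the same floor in endothelial-like cells, which had 0 counts. Sox21 was about as frequent in cells with Sox2 as in cells without: 7 cells had both, 12.7% of the Sox2 cells against 14.2% of the cells without Sox2.

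Sox5 was shared by 3 of the 5 classes compared, each with counts in 37.8% to 48.0% of cells. It averaged 127 ± 30.1 CPM in radial glia-like or astrocyte-like cells (88.4 to 172, n = 8; 44.8% of cells), 119 ± 117 CPM in mural-like cells (2.60 to 300, n = 8; 37.8%) and 296 ± 340 CPM in neuroblast-like cells (0.479 to 881, n = 5; 48.0%). Radial glia-like or astrocyte-like cells were even from mouse to mouse, whereas mural-like cells fell into mice at 172 CPM or more (1, 2, 3 and 6) and mice at 36.8 CPM or less (4, 5, 7 and 8). Against the mural-like spread no difference was detected: the radial glia-like or astrocyte-like minus mural-like difference was 1.55 on the log2 scale (95% interval -0.70 to 3.80, adjusted p = 0.339, edgeR). Pooled over cells Sox5 went the other way, 1.09-fold higher in mural-like cells, so the fitted value is not to be read as a difference in level. The cause of that gap was not tested. In oligodendrocyte-like and endothelial-like cells Sox5 had counts in 3 of 302 and 3 of 87 cells. The antisense gene Sox5os1 shares 1330 of the 14376 exonic bases and had 33 counts in all radial glia-like or astrocyte-like cells and 0 in mural-like and neuroblast-like cells.

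Sox11, the SoxC factor of newborn neurons, had counts in all 25 neuroblast-like cells (interval 86.7 to 100). The 5 mice with at least 3 neuroblast-like cells stood at 583, 1627, 1092, 1421 and 1508 CPM (mice 1, 3, 5, 6 and 8, mean 1246 ± 421). The lowest of these values exceeds the highest in radial glia-like or astrocyte-like cells, 102 CPM, where 23 of 203 cells had counts (11.3%). Between these classes Sox11 differed by -5.40 on the log2 scale (SE 1.05, adjusted p = 0.0163, edgeR, lower in radial glia-like or astrocyte-like cells in 5 of 5 mice; the median over all genes tested was 2.29). The adjusted p was 0.061 without mouse 6 and 0.067 without mouse 8. It was the 1 gene called among the 6 Sox genes tested, against a background of 5.34% of 8915 genes. In oligodendrocyte-like cells 6 of 302 had counts, and in endothelial-like cells 0 of 87.

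Sox4, the other SoxC member, varied more between mice. Neuroblast-like cells had 5.32, 103, 328, 51.3 and 247 CPM in the same 5 mice (mean 147 ± 136) and counts in 15 of 25 cells, all of which had Sox11. Radial glia-like or astrocyte-like cells ranged from 0.176 to 37.6 CPM (median 12.7) with counts in 21 of 203 cells, so the mice of these classes overlap, and the log2 difference was -1.86 (95% interval -6.56 to 2.84, adjusted p = 0.649, edgeR). The endothelial-like mean of 11.8 CPM rested on 1 cell of mouse 6 with 98.7% of the counts. Per kilobase, Sox11 stood at 150 ± 50.6 and Sox4 at 30.6 ± 28.3 CPM per kb in neuroblast-like cells. Sox4 is a gene of 1 exon, of which 2616 of 4795 bases are overlapped by the antisense gene Gm26735, which is not analysed here.

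Both SoxC genes are shown with the stretch just before their annotated start (RefSeq windows on GRCm38.p6, minus strand), because their mean CPM was highest in the same class. For Sox4 the difference from radial glia-like or astrocyte-like cells did not pass the threshold. The capitals mark the E-box CAGCTG, a sequence that proneural factors recognise.
Sox11, chr12:27342719-27342968: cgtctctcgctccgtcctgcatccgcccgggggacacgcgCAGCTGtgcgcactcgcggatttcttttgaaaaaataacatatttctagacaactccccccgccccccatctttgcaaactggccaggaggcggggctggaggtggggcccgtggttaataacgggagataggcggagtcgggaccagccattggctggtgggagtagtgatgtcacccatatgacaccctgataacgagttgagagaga
Sox4, chr13:28953714-28953949: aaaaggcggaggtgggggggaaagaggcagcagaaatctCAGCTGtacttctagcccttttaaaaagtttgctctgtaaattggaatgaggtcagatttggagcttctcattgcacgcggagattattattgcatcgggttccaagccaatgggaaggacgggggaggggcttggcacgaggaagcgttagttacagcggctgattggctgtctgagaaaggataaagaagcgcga
Each window holds CAGCTG 1 time, and 13.0% of 32851 promoter windows of 250 bases hold it at least 1 time. The Sox4 window is shorter, at 236 bases. CAGCTG reads the same on both strands. The SOX core motifs AACAAT and ACAAAG, searched on both strands, are in neither window (9.42% and 16.5% of all windows hold them). Promoter windows were matched for 6 of the 10 genes, and 5 of them were long enough before the annotated gene to search. The windows of Sox2, Sox8 and Sox21 hold CAGCTG 0 times.

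Sox17 and Sox18, the SoxF factors of endothelium, were found in 1 class. Sox17 ranged from 423 to 846 CPM in endothelial-like cells (median 631, mean 630 ± 156, n = 8) and Sox18 from 581 to 2204 CPM (median 818, mean 1033 ± 537, n = 8). The highest Sox18 value came from mouse 7, which had 3 endothelial-like cells. Of 30124 counts of Sox17, 30117 lay in endothelial-like cells, as did 48519 of 48522 counts of Sox18. Mural-like cells, their neighbours in the vessel wall, had 0 counts of either gene in 82 cells, which allows a share of up to 3.66%. Pooled over mice, Sox18 in endothelial-like cells was 14328-fold above the floor for mural-like cells, which is not a lower bound. Even so, Sox17 had counts in 53 of 87 endothelial-like cells (60.9%, interval 50.4 to 70.5) and Sox18 in 61 (70.1%, interval 59.8 to 78.7). Both were in 43 cells and 16 had neither. Sox18 was in 81.1% of the Sox17 cells and in 52.9% of the cells without Sox17.

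Per kilobase of exon Sox18 read 637 ± 331 and Sox17 132 ± 32.8 CPM per kb. On that scale Sox18 had the highest mean of the 10 genes over the 5 classes compared, and Sox17 and Sox11 (in neuroblast-like cells) did not differ beyond their spread. The remaining SoxF gene, Sox7, was in 62.1% of endothelial-like cells at 367 ± 234 CPM (n = 8) and in 6.90% of radial glia-like or astrocyte-like cells.

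In the remaining pairs of classes the Sox genes that passed the filter were mostly called, and the shares of all genes called are given beside them. Between oligodendrocyte-like and neuroblast-like cells 5 of 6 were called (background 8.1%), between oligodendrocyte-like and endothelial-like cells 4 of 4 (28.1%), and between oligodendrocyte-like and mural-like cells 3 of 3 (25.0%). Radial glia-like or astrocyte-like cells differed from endothelial-like cells in 7 of 7 (26.3%) and from mural-like cells in 3 of 4 (21.3%). Neuroblast-like cells differed from endothelial-like cells in 4 of 6 (9.81%) and from mural-like cells in 1 of 3 (7.05%), and endothelial-like cells differed from mural-like cells in 3 of 3 (9.23%). A gene that passed the filter only through the class where it is high had to differ, so these counts support nothing beyond the values above. Leaving out mouse 3, 5 or 6 left 3 calls between oligodendrocyte-like and neuroblast-like cells, and leaving out mouse 5 gave 5 between radial glia-like or astrocyte-like and mural-like cells.

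The genes known to work with the Sox factors were measured in the cells that made the classes, and several are among the markers that named them, so their values between classes are a description. Between oligodendrocyte-like and radial glia-like or astrocyte-like cells, 11 of 11 glial partners of SoxE passed the threshold, 7 higher and 4 lower in the former (background 27.1%). Nkx6-2 and Myrf, transcription factors of myelinating cells, averaged 323 ± 79.0 and 192 ± 48.3 CPM against 2 and 4 counts in all 203 cells of the latter. Nfib, a factor of astrocyte development, averaged 22.0 ± 5.54 against 172 ± 55.4 CPM. Of 10 reported SoxE targets 9 were tested and 7 were higher in oligodendrocyte-like cells, among them Mag, a myelin glycoprotein (4565 against 0.214 CPM). Mag is also a marker that named that class. The 1 lower target, Mmd2, is named for that after its values were seen (4.91 against 1601 CPM).

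Of 8 partners of SoxB 7 were tested in the same pair (background 27.1%) and 5 were lower in oligodendrocyte-like cells, led by the stem cell factors Lhx2 (0.0298 against 54.0 CPM) and Pax6 (0.0518 against 55.1 CPM). Of 6 reported SoxB targets 4 of 5 tested were lower, among them the Notch effector Hes5 (1 count against 98.8 CPM). Hes5 and Fabp7 are also markers that named the radial glia-like or astrocyte-like class. Nes, the remaining tested target, averaged 35.8 ± 18.7 against 56.9 ± 28.3 CPM (adjusted p = 0.456, edgeR). Among the 9 other Sox genes listed, 3 of 3 tested were lower: Sox6 (3.06 against 108 CPM), Sox1 (0.0832 against 15.1 CPM) and Sox13 (1.58 against 30.8 CPM).

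Of 8 neuronal partners and targets of SoxC 7 were tested between radial glia-like or astrocyte-like and neuroblast-like cells, and 3 passed the threshold (background 5.34%), all higher in the latter. They were Prox1, a factor of granule neurons (40.6 against 1023 CPM), Neurod1, a neuronal differentiation factor (8.42 against 857 CPM), and Calb2, which encodes calretinin (4.91 against 899 CPM). Neurod1 and Calb2 are also markers that named the neuroblast-like class, as Cldn5 and Cdh5 are for the endothelial-like class. Of 14 vascular partners and targets of SoxF 10 were tested between endothelial-like and mural-like cells, and 4 were higher and 1 lower in endothelial-like cells (background 9.23%). Cldn5, a tight junction gene, averaged 12554 CPM against 0.104 CPM. Cdh5, the endothelial cadherin, averaged 256 ± 167 CPM and Erg, an ETS factor, 154 ± 101 CPM, both with 0 counts in mural-like cells. The 1 lower gene was Nr2f2, a factor of venous endothelium (15.7 against 180 CPM).

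The pattern of each gene over 39 sums of mouse and class was ranked against 13085 genes by Spearman's rho on log2(CPM + 1), as a description in which the points share mice and depth. Closest to Sox10 were Myrf (0.80), Mgat3 and Fign, and to Sox8 Pigz (0.90), Padi2 and Zcchc24. For Sox2 they were Cntfr (0.94), Scrg1 and Pcsk6, for Sox9 Sdf2 (0.79) and Lix1, and for Sox21 Map3k19 (0.89), Gm27151 and Gm44895. For Sox11 they were Gria2 (0.92), Bex4 and Efs, for Sox4 Egfem1 (0.84), Prdx2 and Nsg2, and for Sox5 F2r (0.78), Dock11 and Pkia. For Sox18 they were Hspa12b (0.95), Kcnq1 and Erg, and for Sox17 Unc45b (0.90), AU021092 and Gata2. Within subgroups, Sox18 held rank 6 for Sox17 and Sox17 rank 16 for Sox18 (0.84), and Sox8 held rank 21 for Sox10 and Sox10 rank 172 for Sox8 (0.74). Sox11 held rank 42 for Sox4 and Sox4 rank 169 for Sox11 (0.72), and Sox21 held rank 387 for Sox2 and Sox2 rank 211 for Sox21 (0.71). Sox9 and Sox10 stood at -0.20.

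Within the stem and astrocyte class the Sox genes were not evenly spread over its 4 clusters. A cluster of 35 cells, 97.1% of them with Nes counts, held 15 of 17 markers of the class and is called the Nes-rich cluster here. Sox9 was alike in it and in the other 168 cells (88.6% and 87.5% of cells, 538 ± 196 CPM over 7 mice and 423 ± 98.9 CPM over 8). Both SoxC genes were each in 13 of the 35 cells (37.1%), against 8 of 168 (4.76%) for Sox4 and 10 of 168 (5.95%) for Sox11. Of those 13 Sox11 cells, 11 also had Sox9 and 8 had Sox4. The SoxC genes were not high in every mouse. Over 7 mice the cluster had Sox4 at 76.6 ± 83.7 CPM and Sox11 at 94.5 ± 117 CPM. The other clusters had 5.90 ± 6.06 and 3.85 ± 6.21 CPM over 8 mice. In the cluster Sox4 was at 0 CPM in mice 1 and 4 and 0.549 CPM in mouse 5, and Sox11 was at 0 CPM in mice 4 and 5. Sox5 was in 71.4% against 39.3% of cells and Sox8 in 51.4% against 32.1%. Sox1, a SoxB gene outside the 10, was in 40.0% against 7.74%. Sox21 went the other way, in 1 of 35 cells against 27 of 168 (2.86% and 16.1%), and Sox2 was alike (28.6% and 26.8%).

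These shares carry no test, since a cluster is made from the cells' own genes, and depth moves with them: the Nes-rich cells had a median of 606189 counts and 3636 detected genes, the others 526669 counts and 2643 genes. After thinning to 200000 counts, which left 34 and 148 cells, Sox4 was in 23.5% against 4.05% of cells, Sox11 in 35.3% against 6.08% and Sox21 in 0% against 12.2%. At a lower clustering resolution these 35 cells joined the neuroblast-like class, so its name depends on that choice. A second cluster of the class, 36 cells with a median of 881 detected genes, held Sox9 in 72.2% of cells but Sox5 in 2.78%, Sox4 and Sox11 under 1 CPM, and Sox2 in 5.56%.

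**Figure D3:**
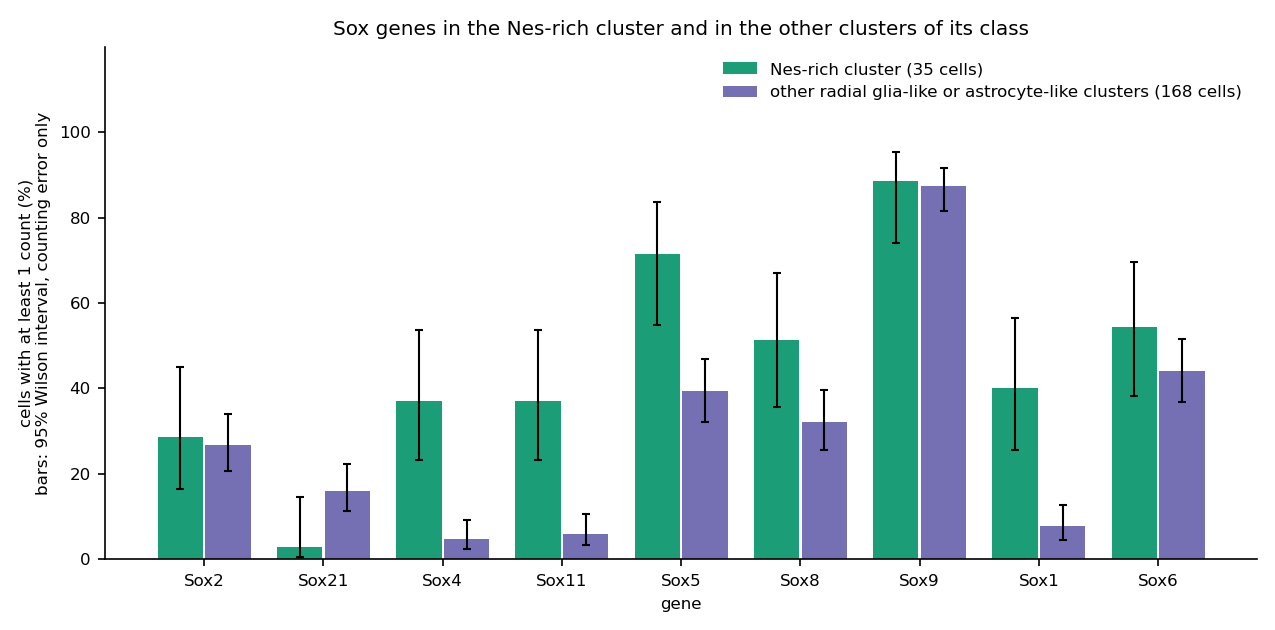
Share of cells with at least 1 count (percent, with 95% Wilson intervals for counting error) in the 35 cells of the Nes-rich cluster and in the 168 other radial glia-like or astrocyte-like cells. Sox9 is alike at 88.6% and 87.5%, Sox4, Sox11 and Sox1 are at 37.1 to 40.0% against 4.76 to 7.74%, and Sox21 is at 2.86% against 16.1%.

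Splitting the same class by Nes counts alone, with 100 cells with and 103 without, was tested over 8 mice. None of the 7 Sox genes tested passed the threshold, where 5 of 8946 genes did (0.0559%; 515 genes had an unadjusted p under 0.05). Sox11 was at 56.3 ± 69.9 CPM with and 5.33 ± 9.77 CPM without Nes counts (log2 difference 5.67, SE 1.93, unadjusted p = 0.0108, adjusted p = 0.606, edgeR). Outside the Nes-rich cluster, the 66 cells with Nes counts had Sox11 at 1.04 ± 1.70 CPM. Sox9 was at 474 ± 103 and 409 ± 125 CPM (0.16, 95% interval -0.39 to 0.71), Sox2 at 36.2 ± 36.0 and 20.2 ± 17.5 CPM (0.70, -2.74 to 4.14) and Sox5 at 154 ± 49.4 and 87.5 ± 44.0 CPM (0.88, -0.20 to 1.96).

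The study asked what blocking miR-132 does to these cells, and for the 10 Sox genes no difference passed the threshold in any class. All 10 were tested in all cells together, 3 in oligodendrocyte-like cells, 7 in radial glia-like or astrocyte-like cells, 3 in endothelial-like cells (7 mice, since mouse 7 had 3 cells) and 1 in mural-like cells. The antagomir and scrambled mice overlapped for each of them. Within single pools or sort days the sign of the difference in all cells turned for 8 of the 10 genes (all but Sox5 and Sox21), again with no call. Each combination of sort day and pool held 1 mouse of each treatment. Over these 4 pairs Sox5 in all cells was lower in the antagomir mouse in 4 of 4 and Sox21 higher in 4 of 4. These genes were picked from the 10 by their sign, and the share of all genes with 1 sign in 4 of 4 pairs was not computed. With the pairs as a block the differences were -0.61 (95% interval -1.31 to 0.085) and 1.52 (-1.12 to 4.16), both with an adjusted p of 1.0 (edgeR). The background was 0.0% of genes called by edgeR in each of the 5 comparisons (6788 to 15447 genes tested, 61 to 280 with an unadjusted p under 0.05). DESeq2 called 8 to 66 genes in them and no Sox gene. With other settings edgeR called up to 6 genes in endothelial-like and 4 in mural-like cells, again no Sox gene. Fewer cells of a class and less RNA per cell cannot be told apart in the sums over all cells.

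In oligodendrocyte-like cells Sox10 read 342, 491, 237 and 353 CPM in the scrambled mice 1, 3, 5 and 7 and 260, 293, 214 and 428 CPM in the antagomir mice 2, 4, 6 and 8. The log2 difference, antagomir minus scrambled, was -0.27 (SE 0.26, 95% interval -0.84 to 0.30, edgeR). Sox8 read 329, 256, 384 and 315 CPM in scrambled and 409, 290, 371 and 249 CPM in antagomir mice, a difference of 0.02 (-0.49 to 0.52). Sox2 read 0.0, 2.55, 3.25 and 0.291 CPM in scrambled and 1.80, 7.15, 0.566 and 14.7 CPM in antagomir mice. It had counts in 8 of 161 scrambled and 10 of 141 antagomir cells. The Sox8 interval is the narrowest of the Sox genes in the main fits between treatments, and still leaves room for a difference of 0.52.

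In radial glia-like or astrocyte-like cells Sox9 read 533, 448, 436 and 499 CPM in scrambled and 358, 524, 337 and 537 CPM in antagomir mice (-0.14, 95% interval -0.70 to 0.41). Sox5, with a pair of seed matches, read 150, 110, 115 and 161 CPM and 172, 110, 108 and 88.4 CPM (-0.20, -0.92 to 0.52). For Sox2, whose values are given above, the difference was -0.35 (-2.48 to 1.78). Leaving out single mice moved it from -1.82 (without mouse 4, the mouse with the highest value) to -0.0087 (without mouse 2), with no call in either. By cells, 29 of 109 antagomir cells had counts against 26 of 94 scrambled cells. Sox21 had counts in 19 of 109 against 9 of 94 cells (1.22, -1.68 to 4.11), with mouse 8 at 73.0 CPM and the other antagomir mice at 6.14 to 11.7 CPM. Sox4 (0.74, -2.18 to 3.65), Sox11 (-0.57, -3.42 to 2.27) and Sox8 (0.10, -0.89 to 1.09) had intervals that also include 0.

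In endothelial-like cells Sox17, with its seed match, read 644, 557, 442 and 825 CPM in scrambled and 618, 423, 682 and 846 CPM in antagomir mice (0.14, 95% interval -0.83 to 1.10, mouse 7 left out of the fit). Sox18, with no match, was at 0.25 (-0.70 to 1.21). Sox5 in mural-like cells was at -0.60 (SE 1.43). Of the 4 genes with a seed match, Sox4 and Sox17 were higher (0.60 and 0.26) and Sox5 and Sox11 lower (-0.52 and -0.23) in antagomir mice in all cells together, none past the threshold and none with groups that did not overlap. Neuroblast-like cells were not fitted, since 1 mouse had at least 5 of them. Sox11 read there 583, 1627 and 1092 CPM in scrambled mice 1, 3 and 5 and 1421 and 1508 CPM in antagomir mice 6 and 8.

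**Figure D4:**
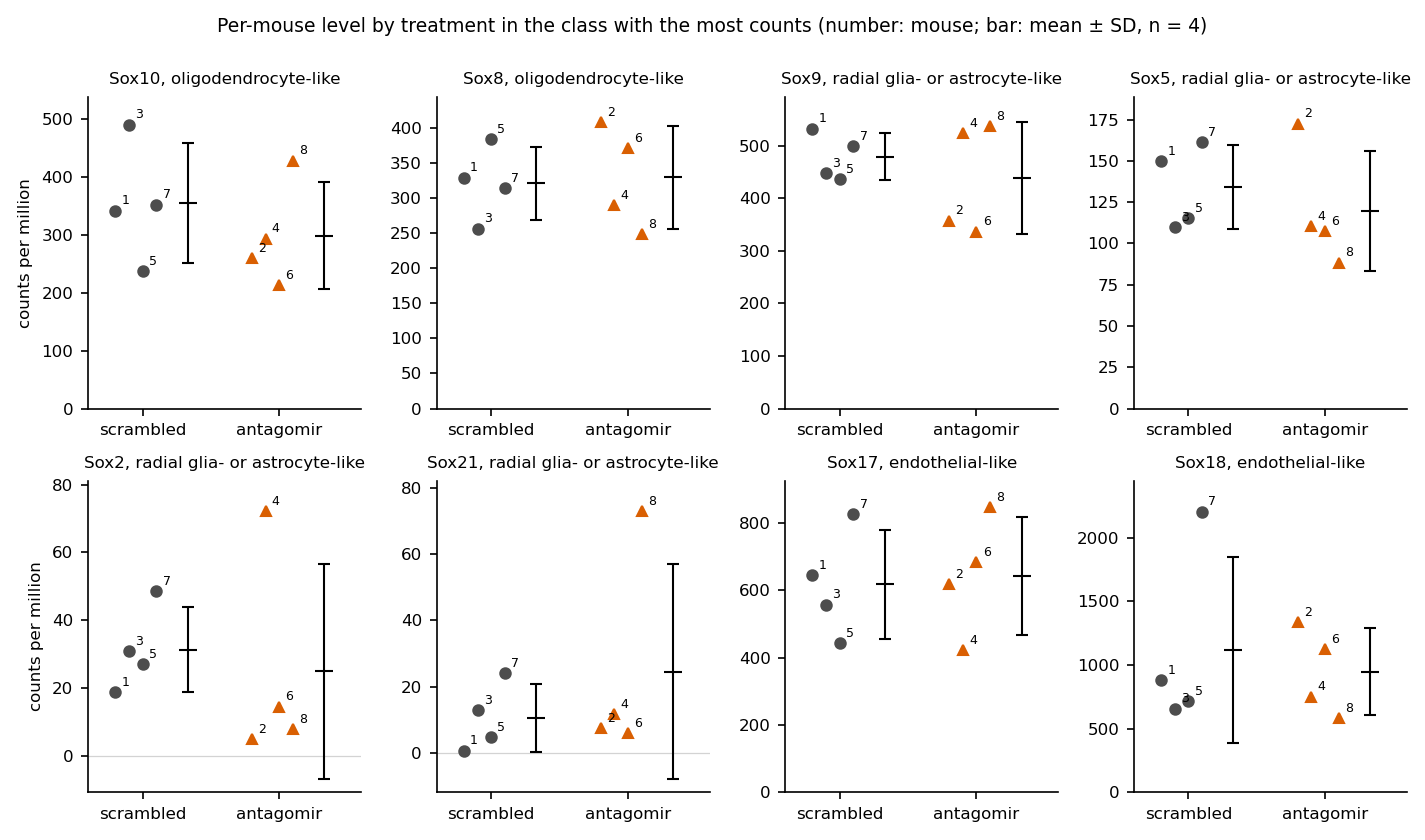
Level per mouse, in CPM, of 8 Sox genes in the class that holds most of their counts, by treatment; numbers are mice and bars the mean ± SD of 4 mice (endothelial-like cells of mouse 7 are 3 cells). The treatments overlap in every panel, and single mice lie far above the others for Sox21 (mouse 8, 73.0) and Sox18 (mouse 7, 2204). For Sox2, mouse 4 (72.2) lies far above the other antagomir mice, and the next value is 48.6 in scrambled mouse 7.

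The antagomir effect was also compared between radial glia-like or astrocyte-like and oligodendrocyte-like cells as an interaction. Of 13679 genes 0 were called (0.0%; 315 with an unadjusted p under 0.05), and the 8 Sox genes tested ran from -3.51 (Sox2, 95% interval -9.18 to 2.15) to 3.65 (Sox4, -2.53 to 9.84). The partner and target lists gave no call in any of the 5 treatment comparisons. In all cells their medians lay between -0.21 (reported SoxE targets, 4 of 10 positive) and 0.04 (neuronal partners and targets of SoxC, 4 of 7 positive), beside 0.21 for the 10 Sox genes and 0.0037 for all genes. The SoxC list had a median of 1.23 in radial glia-like or astrocyte-like cells, with 6 of 6 tested genes positive, beside -0.0069 for all genes. The neuroblast marker list, which holds 5 of the 8 genes of that list, had a median of 1.75 there with 7 of 7 positive, and its part in the values was not tested. In that class the other lists ran from -0.45 (SoxE targets, 2 of 5 positive) to 0.24 (other Sox genes, 3 of 4 positive). The SoxE targets were at -0.75 in endothelial-like and 1.12 in mural-like cells, from 3 genes tested in each.

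**Figure D5:**
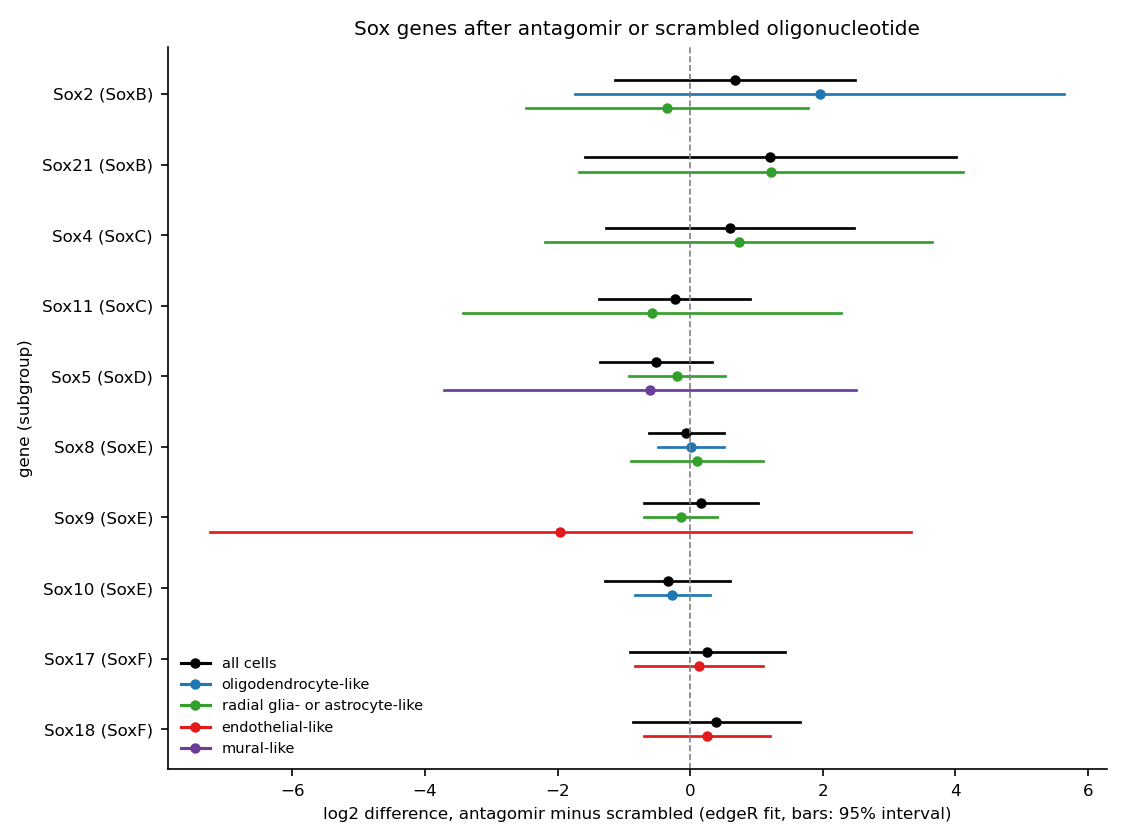
Fitted log2 difference, antagomir minus scrambled, with 95% intervals for each Sox gene in all cells and in each class where it was tested. Every interval includes 0, and the narrowest is that of Sox8 in oligodendrocyte-like cells (-0.49 to 0.52).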

How the data were processed

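Single wells of the dentate gyrus of 8 mice, 4 per treatment, were analysed from the table of read counts per gene and well that the authors deposited (raw counts, not normalized). Reads were aligned to mm10 with STAR 2.5.2 and counted with featureCounts 1.5.1 (Subread), and FastQC and Seurat 2.3.1 are also named, per the submitters' processing notes. Strandedness, annotation release and the study's own cell filter were not given in those notes or the labels. Smart-seq2 reads without molecular identifiers are not independent molecules, so counts of a gene depend on its length and on amplification.

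Wells with 500 to 6000 detected genes were kept (716 of 768; median 650777 counts and 2778.5 genes). The 384 index pairs were used in both sequencing pools, and no pair was repeated within a pool. No doublet caller was run, and the upper limit on genes is the guard used against doublets. Cells were scaled to 10000 counts, and 2000 variable genes without any Sox gene gave 20 principal components, 15 neighbours and Leiden clusters at resolution 1 (12 clusters; scanpy 1.11.5, Python 3.11.15). A cluster took the name of the class whose markers it held, with at least 3 detected. The 10 Sox genes, the markers and the partner and target lists were chosen with earlier results of these data known. Of those lists the text names up to 4 genes with the smallest p per comparison, and the genes most like each Sox gene are the 3 with the highest Spearman correlation. A few genes that these rules would name are not reported here.

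The replicate is the mouse. Counts were summed per mouse and class and tested with edgeR 4.0.16 (R 4.3.3; quasi-likelihood, TMM, filterByExpr, Benjamini-Hochberg over all genes tested, threshold 0.05). Pairs of classes had the mouse as block and at least 3 cells of both classes, and treatments at least 5 cells per mouse. The mice cannot be tied to the 2 samples labelled for each treatment, so treatment was read from the table of wells. Sort day and pool, from the same table, pair 1 mouse of each treatment. Deviations of paired mice correlated at -0.0033 to 0.15 over 12 checks, and the pair is a block in an alternative fit. P-values measure the spread between these mice. Shares have 95% Wilson intervals, and floors take 3 counts. Alternatives included DESeq2 1.42.0, limma 3.58.1 on mean log2(CPM + 1), other size factors, no filter, sort day and pool terms and leaving out each mouse (scipy 1.17.1 for correlations). All columns used belong to samples of the series.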

Additional observations from a re-analysis of the deposited data

Results flagged for a closer look

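In 13 of 46 groups of 4 to 8 mice checked, 1 mouse stood far from the others (its gap to the nearest one, over the group's range, was above Dixon's 95% critical value). Chance gives this in about 1 of 20 groups of independent, normally distributed values. These groups are nested (all mice and each treatment) and some are at 0 in all but 1 mouse, so their number is not to be read against that rate.

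In radial glia-like or astrocyte-like cells Sox2 was at 72.2 CPM in antagomir mouse 4, with the other antagomir mice at 4.96 to 14.5 CPM. Sox21 was there at 73.0 CPM in antagomir mouse 8, with the other antagomir mice at 6.14 to 11.7 and all other mice at 0.786 to 24.1 CPM. Sox8 was at 88.3 CPM in scrambled mouse 1, with the other scrambled mice at 46.1 to 53.3 CPM.

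In endothelial-like cells Sox18 was at 2204 CPM in scrambled mouse 7, from 3 cells, with the other scrambled mice at 657 to 883 and all other mice at 581 to 1339 CPM. Sox4 was at 93.8 CPM in antagomir mouse 6, from 1 cell, with the other mice at 0 to 0.623 CPM, and scrambled mouse 1 (0.623 CPM) stood apart from the other scrambled mice at 0. In neuroblast-like cells Sox5 was at 881 CPM in mouse 5, with the other 4 mice at 0.479 to 245 CPM. In mural-like cells Sox9 was at 169 CPM in antagomir mouse 8, from 1 cell, with the other mice at 0 to 0.159 CPM, and scrambled mouse 3 (0.150 CPM) stood apart from the other scrambled mice at 0.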

How the results depend on the processing

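Between classes, only the Sox differences called in the main fits were followed gene by gene, and these kept their direction in every alternative run. Outside the leave-one-out fits 282 of their values stayed past the threshold and 6 did not, against 243 and 17 when single mice were left out. The direction of differences not called in the main fits was not followed. The number of Sox genes called moved by more than 1.5 times in 4 pairs, and by at most 2 genes in the other 6. Between radial glia-like or astrocyte-like and neuroblast-like cells 1 became 4 with DESeq2, 3 with no filter, 3 with no replicate block (mouse) and 4 in 1 joint fit, and 0 to 1 without single mice. Between radial glia-like or astrocyte-like and mural-like cells 3 became 6 with no filter and 6 in the joint fit, and 3 to 5 without single mice. Between neuroblast-like and mural-like cells 1 became 2 with DESeq2, 2 with no replicate block, 3 at Leiden resolution 0.5 and 3 in the joint fit. Between oligodendrocyte-like and neuroblast-like cells 5 became 3 to 4 without single mice, where 267 to 324 genes were called in place of 739. Over all genes DESeq2 called 1555 to 5869 per pair, 1.58 to 7.83 times as many, and the joint fit up to 4.68 times as many. The split by Nes counts gave 1 to 3 genes in place of 5 without single mice. RLE size factors moved the median of all genes from 0.11 to 0.00078 between oligodendrocyte-like and radial glia-like or astrocyte-like cells and from -0.28 to -0.39 between endothelial-like and mural-like cells. The cause was not tested.

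No Sox gene was called between treatments in any alternative, and these log2 differences (antagomir minus scrambled) changed sign. In all cells within pool L5 they were -0.58 (Sox9), 0.30 (Sox11), 0.15 (Sox8) and -0.60 (Sox2), and within pool L6 -0.38 (Sox4) and -0.45 (Sox18). In all cells within sort day 1 they were -0.29 (Sox17) and 0.21 (Sox8), and within day 2 -0.25 (Sox9), 0.39 (Sox11), 0.11 (Sox10) and -0.55 (Sox2), and limma gave -0.018 for Sox17. In oligodendrocyte-like cells Sox10 was 0.11 on day 2, and Sox8 was -0.79 with limma, -0.075 in L6 and -0.19 on day 2. In radial glia-like or astrocyte-like cells the values in L5 were 2.00 (Sox11) and -0.18 (Sox8), in L6 0.20 (Sox9), -1.45 (Sox4) and 0.023 (Sox2), on day 1 -0.34 (Sox8), 0.68 (Sox2) and 0.11 (Sox5), on day 2 0.093 (Sox11), and with limma -0.53 (Sox8). Without the Nes-rich cluster, an alternative chosen after seeing the data, as was leaving out the low-gene cluster, they were 0.053 (Sox9), -2.12 (Sox4) and 0.046 (Sox5). In endothelial-like cells Sox17 was -0.16 with limma and -0.28 on day 1, and Sox18 was -0.072 in L6. In mural-like cells Sox5 was 0.39 with day as a covariate, 0.28 in L5 and 2.36 on day 2. The cause was not tested.

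Sort day and pool as a replicate block gave -0.051 for Sox17 in endothelial-like and 0.030 for Sox5 in mural-like cells and 0 genes called, and changed no call. With other settings edgeR called genes between treatments in endothelial-like cells (6 with no filter, 6 within pool L6 and 4 within day 2) and mural-like cells (4 with no filter).

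Without single mice the differences in all cells ran from -0.58 to 0.065 (Sox11), -0.040 to 0.83 (Sox17), -0.22 to 0.84 (Sox18), -0.31 to 1.08 (Sox2), -0.27 to 0.10 (Sox8) and -0.27 to 0.37 (Sox9). In radial glia-like or astrocyte-like cells they ran from -1.84 to 0.61 (Sox11), -0.37 to 2.04 (Sox21) and -0.0016 to 0.36 (Sox8), in oligodendrocyte-like cells from -0.12 to 0.14 (Sox8), and in endothelial-like cells from -0.024 to 0.36 (Sox17) and -0.039 to 0.47 (Sox18). Depth limits the low genes: a count of 0 in 25 neuroblast-like cells allows a share of up to 12%.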
